A study of Mus musculus with 125 samples.

Results

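Chromatin accessibility was examined at the promoters of 37 genes of the TNF and NF-κB pathway in mouse leukaemia cells of the B-cell lineage (B-ALL, acute lymphoblastic leukaemia) cultured with or without natural killer (NK) cells. The genes were the NF-κB subunits Rel, Rela, Relb and Nfkb2, the inhibitors of the IκB family Nfkbia, Nfkbib, Nfkbie, Nfkbiz and Bcl3, the feedback regulators Tnfaip3, Tnip1 and Cyld, the ligands Tnf, Lta and Ltb, the receptors Tnfrsf1a, Tnfrsf1b, Tnfrsf13c and Cd40, the adaptors Traf1, Traf2, Traf3, Birc2, Birc3, Ripk1 and Ripk2, the kinases and kinase subunits Map3k14, Ikbkb, Ikbke, Chuk and Ikbkg, the signalling partners Bcl10 and Malt1, and the target genes Tnfaip2, Junb, Gadd45b and Ier3. A member peak was a consensus ATAC-seq peak whose centre lay within 3 kb of an annotated transcription start site (TSS) of one of these genes. There were 91 such peaks, 1 to 8 per gene, out of 64558 promoter peaks and 256400 consensus peaks. Of them, 44 passed the filters for testing in at least 1 fit, and 47 were too weak to be tested. Each of the 37 genes had at least 1 tested peak, and the peak nearest to a TSS was tested for 34 of them. The TSS peaks of Bcl3, Tnfaip2 and Tnfrsf1a were too weak, and other peaks stood for these genes.

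ATAC-seq reads out open DNA through the insertion of sequencing adapters by the Tn5 transposase. The B-ALL lines A, B, C and D were made by retroviral transformation of mouse bone marrow with the fusion kinase BCR/ABLp185, and all of them carried a library of DNA barcodes with a GFP marker. Lines A and B are sister lines of a shared parental line, and C and D of a different one, so the comparison of A/B with C/D sets a pair of parental lines side by side and the partners are not independent. B-ALL cells were cultured alone and collected at time point 1 (TP1), or were cultured with IL-2-activated primary NK cells from mouse spleen at equal cell numbers and collected at TP1 or at time point 2 (TP2), and GFP+ leukaemia cells were sorted. The labels give day 4 for TP1 and day 10 for TP2, but days 6 and 16 in experiment 9.7. The text of the study places TP2 later than most of these labels do, so the day of TP2 is uncertain. Per the study, leukaemia cells sorted at a harvest were re-plated with fresh NK cells, so TP2 came after a further sort and round of co-culture. IL-2 was present in all conditions, cells alone included. Cells alone were not collected at TP2, so time in culture, the further sort and NK exposure cannot be told apart at that time point. There were 125 libraries in 42 groups, each a line in 1 of 5 experiments and 1 of 3 arms, and every group had 3 libraries except D alone in experiment 9.6.1, which had 2. Lines A and B gave 6 combinations of line and experiment and lines C and D gave 8, because experiment 9.5.1 held C only and experiment 9.6.1 held D only.

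NF-κB is a family of dimeric transcription factors that are held inactive in the cytoplasm by IκB proteins. In the canonical arm, TNF receptors and other receptors activate the IKK complex through TRAF, cIAP and RIPK adaptors, IκBα is degraded and Rela and Rel dimers enter the nucleus. In the non-canonical arm, lymphotoxin-β receptor, CD40 and the BAFF receptor stabilise the kinase NIK, which leads to processing of the Nfkb2 product p100 and to nuclear p52 with Relb. Both arms serve survival and maturation in B cells, and several of their targets, such as Nfkbia and Tnfaip3, act back on the pathway.

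The promoters of Nfkb2, Ltb, Tnfaip3 and Nfkbia are shown because a κB consensus match lay in each of them, and those of Tnfrsf13c and Traf1 because they gave the main differences described here and held no match. Each run is 300 bases of RefSeq sequence of GRCm38.p6, 5′ to 3′ on the strand of the gene, from 250 bases before the TSS to 50 bases after it. Capitals mark the bases of κB consensus matches, and all other bases are in lower case. The windows are chr19:46304487-46304786 (+) for Nfkb2, chr17:35194257-35194556 (+) for Ltb, chr10:19015361-19015660 (-) for Tnfaip3, chr12:55492598-55492897 (-) for Nfkbia, chr15:82224331-82224630 (-) for Tnfrsf13c and chr2:34961723-34962022 (-) for Traf1.
Nfkb2: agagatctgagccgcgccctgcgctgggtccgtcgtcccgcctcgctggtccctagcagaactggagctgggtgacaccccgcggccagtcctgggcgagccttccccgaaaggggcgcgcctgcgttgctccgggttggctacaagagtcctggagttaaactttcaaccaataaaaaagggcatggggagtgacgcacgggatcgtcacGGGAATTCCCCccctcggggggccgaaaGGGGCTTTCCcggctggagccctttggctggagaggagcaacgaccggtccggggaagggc
Ltb: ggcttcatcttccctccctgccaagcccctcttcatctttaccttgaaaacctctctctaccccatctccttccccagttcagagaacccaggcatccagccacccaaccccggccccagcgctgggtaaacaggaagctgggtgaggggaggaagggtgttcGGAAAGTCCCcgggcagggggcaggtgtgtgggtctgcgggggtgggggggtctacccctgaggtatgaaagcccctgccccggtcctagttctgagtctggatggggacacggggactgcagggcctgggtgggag
Tnfaip3: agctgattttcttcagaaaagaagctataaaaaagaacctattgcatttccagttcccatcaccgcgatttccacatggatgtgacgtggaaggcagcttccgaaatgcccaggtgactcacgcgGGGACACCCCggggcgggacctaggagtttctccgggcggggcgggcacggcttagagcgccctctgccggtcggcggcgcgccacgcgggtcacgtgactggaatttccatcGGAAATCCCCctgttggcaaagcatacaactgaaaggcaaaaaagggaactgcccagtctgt
Nfkbia: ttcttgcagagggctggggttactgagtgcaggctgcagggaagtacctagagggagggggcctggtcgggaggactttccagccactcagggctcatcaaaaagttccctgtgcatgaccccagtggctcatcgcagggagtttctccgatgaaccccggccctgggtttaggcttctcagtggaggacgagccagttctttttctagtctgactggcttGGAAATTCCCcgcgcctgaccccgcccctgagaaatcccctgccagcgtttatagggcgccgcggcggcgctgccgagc
Tnfrsf13c: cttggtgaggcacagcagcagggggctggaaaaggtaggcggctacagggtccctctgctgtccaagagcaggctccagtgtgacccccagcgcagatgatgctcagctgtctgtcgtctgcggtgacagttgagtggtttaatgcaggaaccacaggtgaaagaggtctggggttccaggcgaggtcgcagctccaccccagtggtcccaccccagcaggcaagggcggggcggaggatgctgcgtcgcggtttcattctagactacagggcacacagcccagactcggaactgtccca
Traf1: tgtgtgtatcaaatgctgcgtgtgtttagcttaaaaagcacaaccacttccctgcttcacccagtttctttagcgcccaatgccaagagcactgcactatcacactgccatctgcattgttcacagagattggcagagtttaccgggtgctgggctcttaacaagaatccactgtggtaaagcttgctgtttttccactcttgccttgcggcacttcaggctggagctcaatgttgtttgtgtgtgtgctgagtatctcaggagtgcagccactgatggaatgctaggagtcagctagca

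In the Nfkb2 window shown, the matches started at -39, -38 and -11 relative to the TSS, of which the first pair overlap. Other Nfkb2 windows also held matches. In Tnfaip3 they started at -125 and -12, in Ltb at -87 and in Nfkbia at -29. RefSeq promoters were matched for 31 of the 37 genes, with 39 promoters among them, and Ikbkb, Cd40, Relb, Malt1, Ripk2 and Nfkbiz were not matched. The κB consensus, searched on both strands, occurred in 14 of the 39 member promoters (35.9%) and in 4.51% of all 32851 promoters of the same length. The member promoters with a match belonged to 12 of the 31 genes. Some windows of a gene overlap: the match at 10 in chr19:46305445-46305744 of Nfkb2 is the match at -225 in chr19:46305680-46305979. The sequence TTCNNNGAA, the core of sites bound by STAT factors, occurred in 8 of 39 (20.5%) against 8.30% of all promoters. The sequence GAAANNGAAA, which resembles the interferon-stimulated response element, occurred in 2 of 39 (5.13%) against 3.44%. These are matches of letters in a window and no evidence of binding.

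Libraries held 3083547 to 13580746 counts in consensus peaks. For line C, replicates 2 and 3 were near-identical in 2 groups, NK at TP2 in experiment 9.5 and cells alone in experiment 9.5.1. They differed by no more than sampling noise allows (chi-square over degrees of freedom 0.820 and 0.843), so each pair entered as its mean and counted once. This gave 54 samples in A/B, 69 in C/D and 123 in all. The methods of the study call the replicates biological, but the labels give no culture of origin, so the p-values cover only variation among these libraries, part or all of which may be technical. Among 10 B-lineage marker genes all had a promoter peak, and their summed level was 398 to 900 CPM in every library, although Ptprc was at most 2.88 CPM at its peak. Of 10 NK cell markers, 8 had a promoter peak and Ncr1 and Klrk1 had none. The summed level of the NK markers was 42 to 55.4 CPM in A/B alone, 42.5 to 68.3 with NK cells at TP1 and 39.9 to 63.3 at TP2, and in C/D it was 37.8 to 57.2, 37.6 to 56.5 and 34.1 to 97.5. The defining NK markers Klrb1c and Eomes were at 3.63 to 13 and 7.0 to 23.4 CPM over all libraries. The part of residual NK cells in the values that follow was not tested. In bulk libraries, fewer cells with an open promoter and a less open promoter in each cell cannot be told apart.

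Most tested member peaks were open in every library, those of cells alone included. Values are CPM, counts scaled to the library size, and a difference is a log2 fold change. Over all libraries, with and without NK cells, the 44 tested member peaks had a median of 38.9 CPM and 17.2 CPM per kb of peak. Of them, 79.5% overlapped a broad peak in every library. All 22881 promoter peaks tested over the 4 lines had a median of 14.3 CPM, 7.82 CPM per kb and a share of 47.7%. The filter kept only open peaks in both sets.

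Per kb of peak, the median level over all libraries was highest at Lta, which encodes lymphotoxin α (56.2 CPM per kb), followed by Traf2 (41.9), an adaptor of TNF receptors, Map3k14 (39.2), which encodes NIK, Cyld (35), a deubiquitinase that limits signalling, Bcl10 (34.1) and Malt1 (32.1), partners that link antigen receptors to IKK, and Relb (30.3). Lower levels were seen at Junb (25.1), an AP-1 subunit, Nfkbia (22.1), which encodes IκBα, Tnfrsf1b (19), which encodes TNF receptor 2, Tnf (18.7), Tnfaip3 (14.1), which encodes A20, Traf1 (13.8), Rela (13.6) and Ikbke (9.96). The lowest TSS peaks of the set were Tnfaip2 (4.19), Tnfrsf1a (2.31), which encodes TNF receptor 1, and Bcl3 (2.23). For Bcl3 and Tnfaip2 the peaks over the RefSeq promoters were open, with 7.19 CPM per kb at chr7:19822440-19824906 and 5.78 at chr12:111442037-111445663. At Tnfrsf1a the only tested peak was chr6:125360084-125362584, 907 bp inside the gene from an alternative start (5.73 CPM per kb).

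The question of the main comparisons was whether co-culture with NK cells altered accessibility at these promoters. Calls required both an adjusted p (Benjamini-Hochberg, over all tested promoter peaks) of at most 0.05 and a log2 fold change of at least 0.58 in size, that is about 1.49-fold. No member peak was called with NK cells in either pair of lines at either time point. At TP1 in A/B, 0 of 43 member peaks were called, and 3.89% of all tested promoter peaks were. At TP2 in A/B it was 0 of 43 against 3.63%. In C/D it was 0 of 44 against 1.01% at TP1 and 0 of 44 against 1.78% at TP2. Between TP2 and TP1, 0 of 43 were called in A/B against 0.954%, and 0 of 44 in C/D against 0.353%. DESeq2 also called 0 of them in each of these 6 comparisons. Calls were rarer among peaks that overlapped a broad peak in every library of a fit, as most member peaks did. In A/B, 73 of 11660 such peaks were called higher and 12 lower at TP1, and 64 and 13 at TP2. In C/D, 16 of 11770 were higher and 0 lower at TP1, and 46 and 2 at TP2. Of the member peaks among them, 36 in A/B and 37 in C/D, 0 were called. The shares of all peaks are thus not matched to the members. At an unadjusted p under 0.05, edgeR gave 25 of 43 member peaks for A/B and 12 of 44 for C/D at TP1, where 46.3% and 23.9% of all promoter peaks reached it. At TP2 it gave 12 and 23 (31.1% and 46.3% of all), and between TP2 and TP1 it gave 14 and 20 (33.8% and 45.3% of all).

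**Figure D1:**
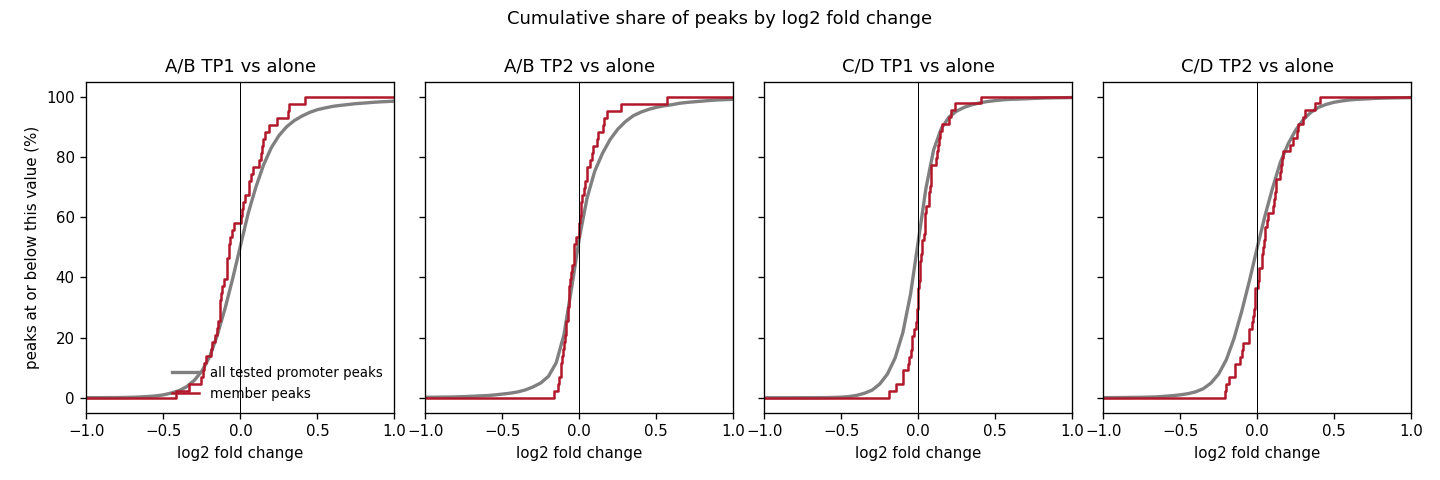
Cumulative share of peaks (y axis, %) by log2 fold change with NK cells over cells alone (x axis), for member peaks (red steps, 43 for A/B, 44 for C/D) and all tested promoter peaks (grey line), in 4 panels for each pair of lines and time point. Member peaks stayed within -0.42 to 0.57 and had no tail past the threshold of 0.58, while the grey curves reach beyond it on both sides.

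Smaller shifts were common. In A/B at TP1, 15 of 43 member peaks passed the adjusted p as lower and 7 as higher, where 20.1% of all promoter peaks were lower and 17.8% higher, and the median log2 fold change was -0.072 over member peaks and -0.0022 over all. With a loess offset, which removes trends of fold change with peak level, the split was 8 lower and 9 higher and the members' median was -0.013. The tilt towards lower values at TP1 in A/B thus depended on the scaling. Values of single peaks below are those without the loess offset unless stated, and with it fewer peaks passed as lower there. In C/D at TP1, 6 of 44 were higher and 0 lower, against 6.18% and 3.39% of all peaks. At TP2, A/B had 3 higher and 2 lower (9.79% and 9.76% of all) and C/D had 14 higher and 6 lower (17.9% and 19.3% of all), with medians over members of -0.033 and 0.042. With the loess offset, A/B at TP2 had 5 higher and 0 lower, and C/D had 15 higher and 6 lower. With the libraries of each group summed, so that a combination of line and experiment counts once, 14 of these 22 peaks still passed in A/B at TP1 and 2 of 5 at TP2, and 2 of 6 in C/D at TP1 and 7 of 20 at TP2. The 8 that no longer passed in A/B at TP1 were Tnf, Cd40, Tnfrsf1b, Traf3, Ripk1, Birc2, Tnip1 and Junb. In C/D the upstream Traf2 peak and Cd40 still passed at both time points, and at TP2 also the second Map3k14 peak, the Tnfaip2 promoter peak, Nfkbiz, Nfkbie and the intronic Bcl3 peak. In A/B at TP2 the inner Nfkbiz peak and the upstream Traf2 peak still passed. The comparisons at TP1 and TP2 share the same cells alone and are given side by side below.

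**Figure D2:**
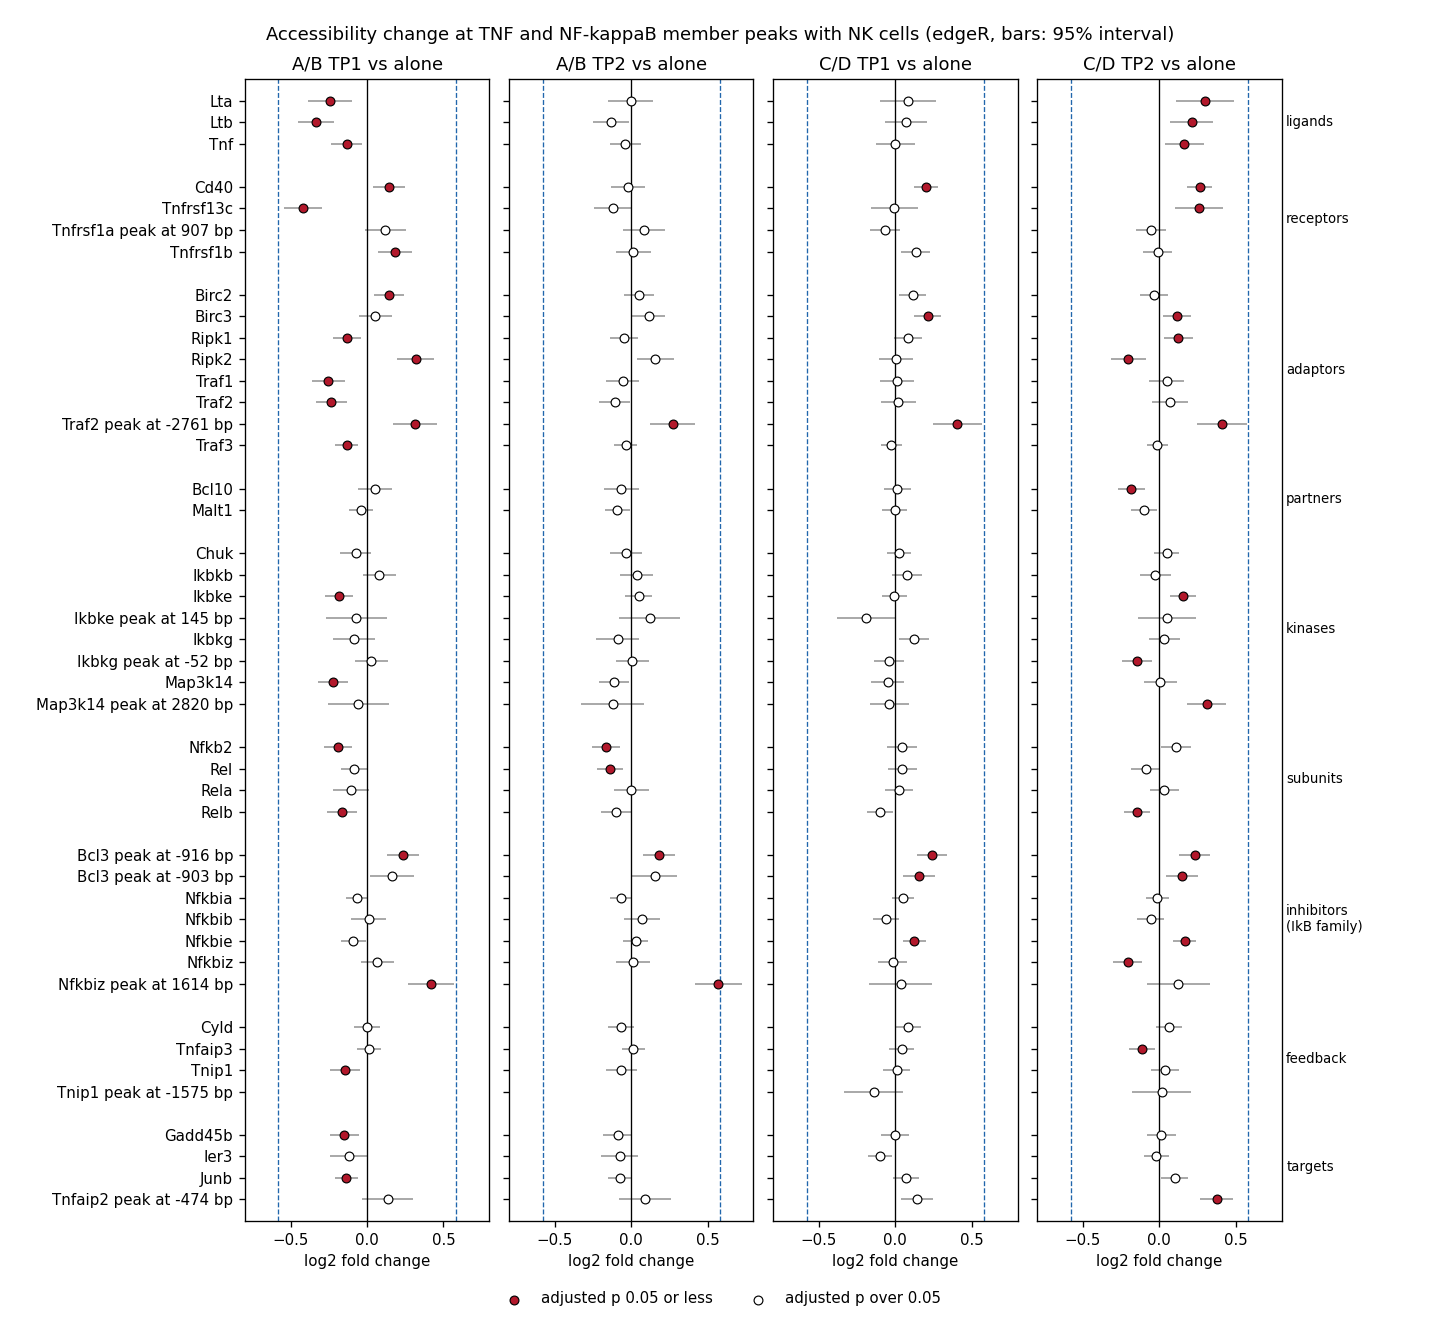
Log2 fold change with NK cells over B-ALL cells alone (x axis) for the tested member peaks (y axis, grouped by role) in 4 panels, 1 per pair of lines and time point, with 95% intervals as bars, dashed lines at the fold threshold and red points where the adjusted p was 0.05 or less. The partners are Bcl10 and Malt1, and bp give the distance of a peak centre from the nearest TSS. The largest shift was at the Nfkbiz peak 1614 bp inside the gene in A/B at TP2 (0.57), and Tnfrsf13c had the lowest value at TP1 in A/B (-0.42).

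The 3 ligand genes lie next to each other on chromosome 17, with peaks at chr17:35194017-35196441 for Ltb, chr17:35200201-35202945 for Tnf and chr17:35204194-35205922 for Lta. Ltb encodes lymphotoxin β, the membrane partner of lymphotoxin α that engages the lymphotoxin-β receptor. In A/B its lowest, median and highest values were 39.5, 68 and 89.7 CPM alone, 32.7, 58 and 72.7 CPM with NK cells at TP1 and 34.5, 59.4 and 88.4 CPM at TP2. Levels were lower at TP1, in 6 of 6 combinations of line and experiment, although the ranges overlapped. At TP1 the log2 fold change was -0.33 (SE 0.061, adjusted p = 1.61e-05), and within experiments 9.5, 9.6 and 9.7 it was -0.29, -0.43 and -0.29. At TP2 it was -0.13 (SE 0.062, adjusted p = 0.128), which did not pass.

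Lta in A/B ranged over 56.4, 99.8 and 170.2 CPM alone, 50.7, 99.6 and 123 CPM at TP1 and 52, 106 and 177 CPM at TP2. Its medians were alike and the upper part of the range was lower at TP1. The log2 fold change with terms for line and experiment was -0.24 (SE 0.074, adjusted p = 0.00766) at TP1, lower in 6 of 6 combinations, and -0.0038 (SE 0.074, adjusted p = 0.981) at TP2. Tnf, which encodes TNF-α, gave -0.13 (SE 0.051, adjusted p = 0.034) at TP1 and -0.037 (SE 0.052, adjusted p = 0.676) at TP2. All 3 ligand peaks were thus lower at TP1 in A/B, where 20.1% of all promoter peaks were, although with summed libraries Tnf gave -0.13 (adjusted p = 0.0586). From TP1 to TP2 in A/B, Ltb was higher by 0.20 (adjusted p = 0.0177) and Lta by 0.24 (adjusted p = 0.0197).

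In C/D the ligand peaks were higher at TP2. Lta ranged over 53.3, 81.5 and 136 CPM alone, 51.5, 89.1 and 140.0 CPM at TP1 and 45.8, 110.0 and 178 CPM at TP2, with log2 fold changes of 0.085 (SE 0.094, adjusted p = 0.612) at TP1 and 0.30 (SE 0.096, adjusted p = 0.0108) at TP2. Ltb gave 0.21 (SE 0.072, adjusted p = 0.0164) and Tnf 0.16 (SE 0.065, adjusted p = 0.0426) at TP2. The high values were those of 2 experiments. In experiment 9.7 they were 0.78 for Lta, 0.55 for Ltb and 0.41 for Tnf, and in experiment 9.6.1 they were 0.66, 0.48 and 0.27. In experiment 9.5 they were -0.031, -0.14 and -0.20. Without experiment 9.7 the values were 0.12 (adjusted p = 0.372), 0.10 (adjusted p = 0.351) and 0.081 (adjusted p = 0.412), and none passed. With summed libraries they were 0.30 (adjusted p = 0.11), 0.21 (adjusted p = 0.141) and 0.17 (adjusted p = 0.213). In line C of experiment 9.7, Lta was at 69.4 ± 5.85 CPM alone and 153 ± 21.3 CPM with NK cells at TP2 (mean ± SD, n = 3 libraries each). In line D of that experiment it was at 106 ± 21.2 and 144 ± 13.6 CPM.

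**Figure D3:**
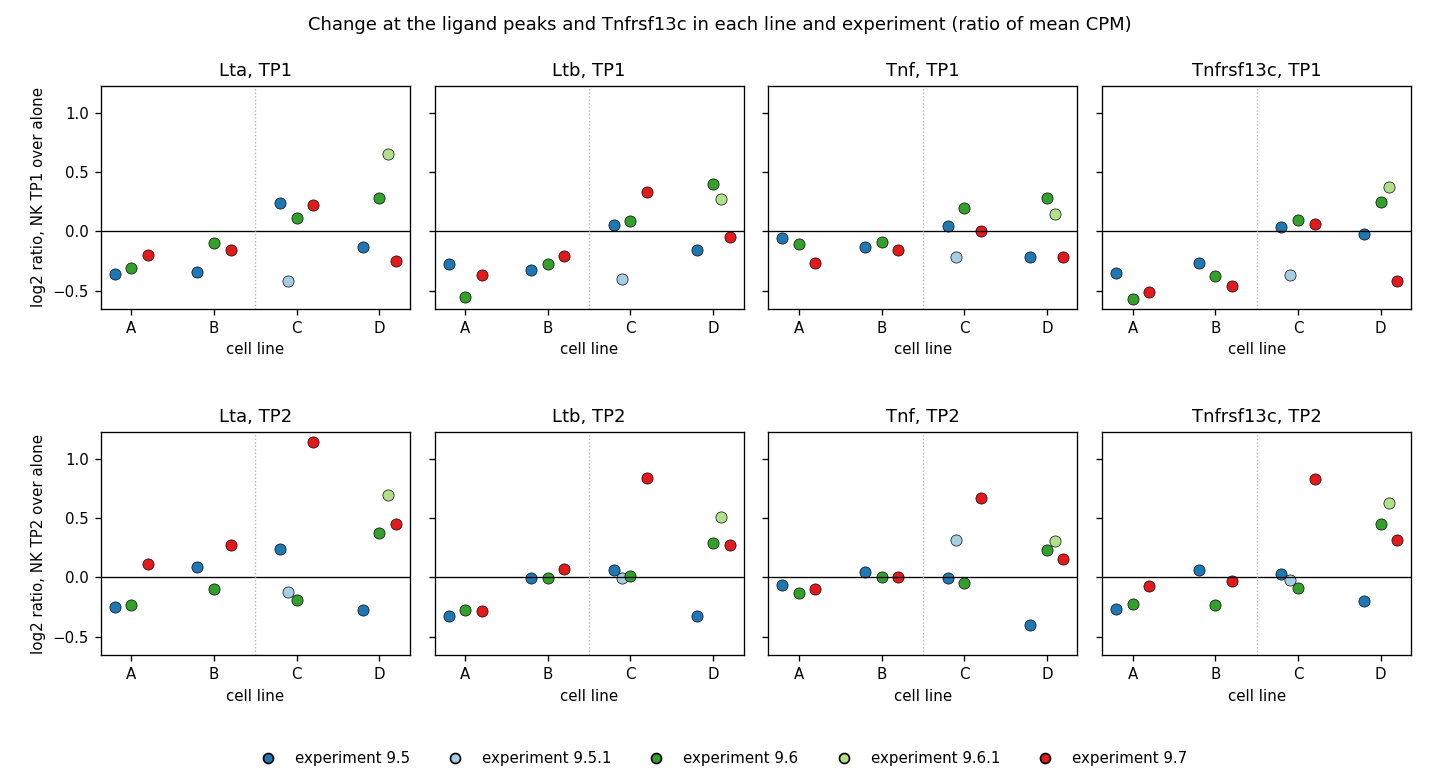
Log2 ratio of mean CPM with NK cells over cells alone (y axis) at Lta, Ltb, Tnf and Tnfrsf13c in each cell line (x axis), 1 point per combination of line and experiment, coloured by experiment, at TP1 (top row) and TP2 (bottom row). In A and B the points for Ltb and Tnfrsf13c lie below 0 at TP1 in all 6 combinations, and in C and D the high points at TP2 are those of experiments 9.7 and 9.6.1.

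Among the receptors, Tnfrsf13c showed the largest fall. It encodes the BAFF receptor, a survival receptor of maturing B cells that signals through NIK. Its peak, chr15:82223829-82225795, ranged in A/B over 25, 37.8 and 54.9 CPM alone, 19.5, 30.3 and 41.9 CPM at TP1 and 20.8, 37.9 and 51.9 CPM at TP2. The TP1 libraries were lower and overlapped with those alone. At TP1 the log2 fold change was -0.42 (SE 0.063, adjusted p = 2.84e-07), that is 1.34-fold lower, with a 95% interval of -0.54 to -0.29. It was lower in 6 of 6 combinations, and was -0.29, -0.47 and -0.49 within experiments 9.5, 9.6 and 9.7. At TP2 in A/B it was -0.12 (SE 0.063, adjusted p = 0.187), and the rise from TP1 to TP2 was 0.30 (SE 0.063, adjusted p = 0.000732), in 6 of 6 combinations.

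In C/D, Tnfrsf13c ranged over 20.8, 32.8 and 42.8 CPM alone, 21.1, 29.3 and 45.2 CPM at TP1 and 16.8, 38.3 and 52.4 CPM at TP2. It gave -0.0055 (SE 0.078, adjusted p = 0.977) at TP1 and 0.26 (SE 0.079, adjusted p = 0.00826) at TP2. The TP2 value was 0.57 in experiment 9.7, 0.59 in 9.6.1 and -0.076 in 9.5, and 0.14 (adjusted p = 0.223) without experiment 9.7. It thus followed the ligand peaks by experiment.

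Cd40, a receptor for T cell help that activates both arms, was higher in C/D at both time points. It ranged over 19.6, 25.9 and 35.1 CPM alone, 19.9, 31.2 and 36.7 CPM at TP1 and 20.9, 32.7 and 38.4 CPM at TP2. The log2 fold changes were 0.20 (SE 0.040, adjusted p = 0.000193) at TP1 and 0.26 (SE 0.041, adjusted p = 7.88e-07) at TP2, each in 8 of 8 combinations. In A/B, Cd40 gave 0.14 (SE 0.054, adjusted p = 0.0307) at TP1, in 4 of 6 combinations, with 0.35, -0.014 and 0.090 within experiments 9.5, 9.6 and 9.7. At TP2 in A/B it gave -0.020 (SE 0.056, adjusted p = 0.851). Tnfrsf1b gave 0.18 (SE 0.058, adjusted p = 0.00939) in A/B at TP1 and 0.13 (SE 0.048, adjusted p = 0.0635) in C/D. The Tnfrsf1a peak inside the gene gave 0.12 (SE 0.069, adjusted p = 0.173) in A/B at TP1 and -0.055 (SE 0.051, adjusted p = 0.413) in C/D at TP2.

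**Figure D4:**
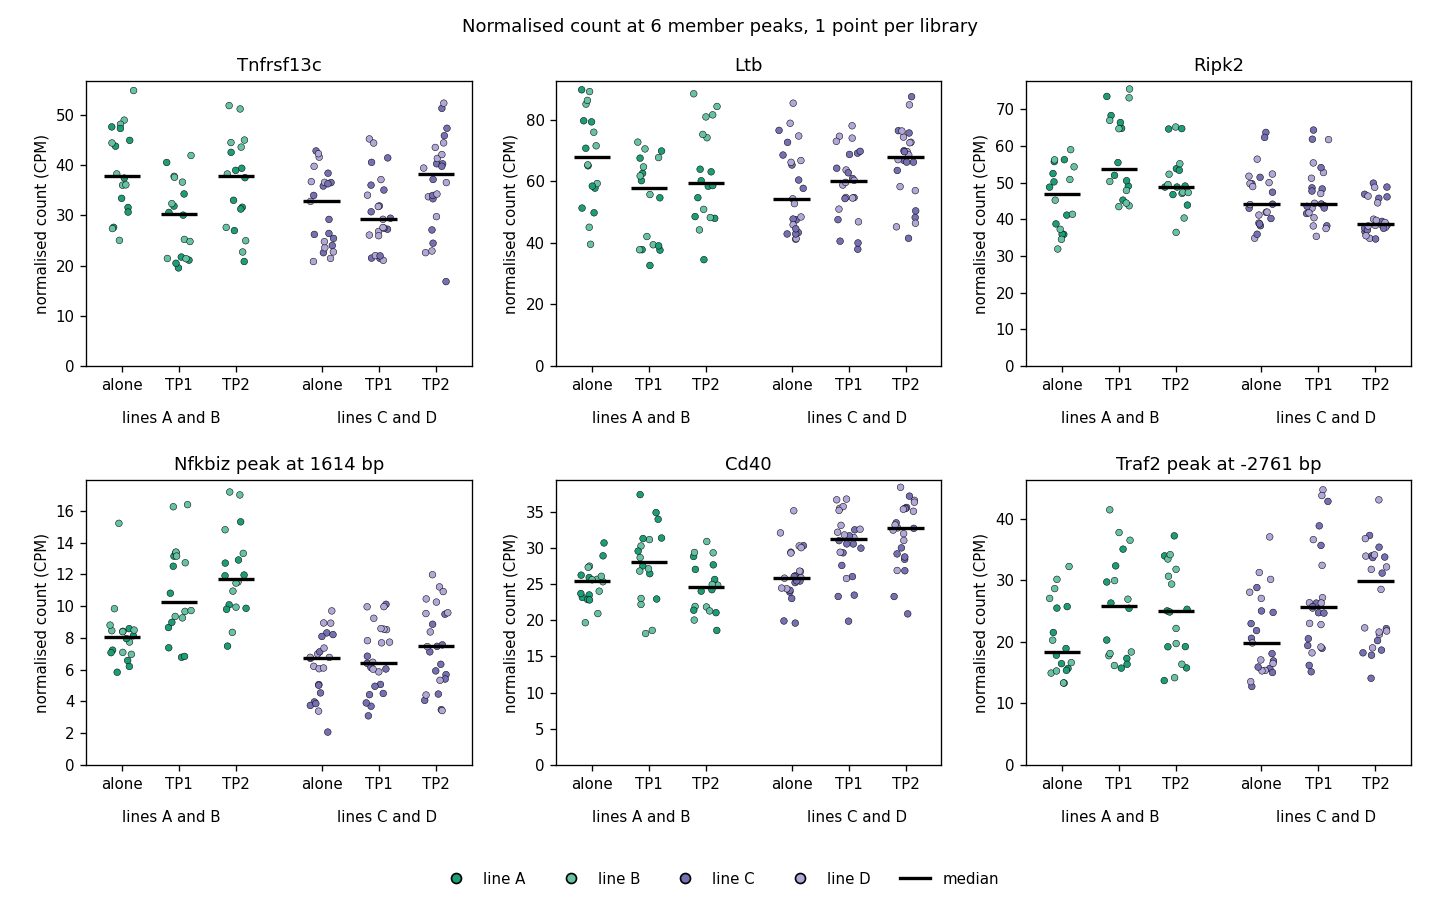
CPM (y axis, from 0) at 6 member peaks in each library, 1 point per library coloured by cell line, by arm (x axis: alone, TP1 and TP2, for A/B on the left and C/D on the right of each panel), with bars at the medians. Ranges overlap between arms in every panel, and the A/B medians of Tnfrsf13c were 37.8 CPM alone, 30.3 at TP1 and 37.9 at TP2.

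Of the 8 tested adaptor peaks, 4 were lower and 3 higher in A/B at TP1, against 20.1% and 17.8% of all promoter peaks. Traf1, an adaptor that is itself a target of NF-κB, ranged over 30.4, 57.6 and 78.5 CPM alone, 35.8, 48 and 57.6 CPM at TP1 and 33.2, 55.5 and 77.9 CPM at TP2. Its log2 fold change at TP1 was -0.25 (SE 0.055, adjusted p = 0.000209), lower in 5 of 6 combinations, and from TP1 to TP2 it was higher by 0.20 (adjusted p = 0.00924). Traf2 gave -0.23 (SE 0.051, adjusted p = 0.000249) at its TSS peak, Traf3, which promotes the degradation of NIK, gave -0.13 (SE 0.038, adjusted p = 0.00415), and Ripk1, a kinase of the TNF receptor complex, gave -0.13 (SE 0.047, adjusted p = 0.0245).

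Ripk2, the kinase that relays signals of the NOD receptors, moved the other way in A/B. It ranged over 31.9, 47 and 59 CPM alone, 43.4, 53.7 and 75.5 CPM at TP1 and 36.4, 48.9 and 65.1 CPM at TP2. The log2 fold change was 0.32 (SE 0.061, adjusted p = 3.33e-05) at TP1, that is 1.25-fold higher, in 6 of 6 combinations, and 0.16 (SE 0.062, adjusted p = 0.0609) at TP2. In C/D it gave 0.0062 (SE 0.057, adjusted p = 0.961) at TP1 and -0.20 (SE 0.058, adjusted p = 0.00452) at TP2. The C/D value at TP2 was -0.52 in experiment 9.7 and -0.059 (adjusted p = 0.479) without it.

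A peak upstream of Traf2, chr2:25549119-25550284, whose centre was 2761 bp from the start, was higher in both pairs of lines at both time points. In A/B it ranged over 13.3, 18.4 and 32.3 CPM alone, 15.7, 25.9 and 41.5 CPM at TP1 and 13.7, 25 and 37.2 CPM at TP2. In C/D the values were 12.8, 19.8 and 37.1 CPM, 15.2, 25.6 and 44.7 CPM and 14.1, 29.9 and 43.1 CPM. The log2 fold changes were 0.31 (SE 0.074, adjusted p = 0.000637) and 0.27 (SE 0.075, adjusted p = 0.00635) in A/B at TP1 and TP2, in 6 of 6 combinations at each, and 0.41 (SE 0.081, adjusted p = 0.000206) and 0.41 (SE 0.083, adjusted p = 9.28e-05) in C/D, in 7 of 8 combinations. The exception in C/D was experiment 9.5.1, with -0.00081 at TP1 and -0.10 at TP2. Traf2 thus had a TSS peak that was lower and an upstream peak that was higher in A/B at TP1.

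Against cells alone, the cIAP genes passed in 1 pair of lines each. Birc3, which encodes cIAP2, gave 0.21 (SE 0.045, adjusted p = 0.000476) in C/D at TP1 and 0.12 (SE 0.046, adjusted p = 0.0401) at TP2, and 0.054 (SE 0.055, adjusted p = 0.457) in A/B at TP1. Birc2, which encodes cIAP1, gave 0.14 (SE 0.050, adjusted p = 0.0198) in A/B at TP1, in 6 of 6 combinations, and 0.11 (SE 0.046, adjusted p = 0.107) in C/D. Whether these values differed between the pairs was tested below, and neither gene passed.

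All 4 tested subunit peaks had a negative log2 fold change in A/B at TP1, and those of Nfkb2 and Relb passed the adjusted p. Nfkb2 ranged over 49.1, 68.3 and 82.7 CPM alone, 44.9, 61.8 and 72.5 CPM at TP1 and 44.2, 61.5 and 76.6 CPM at TP2. It gave -0.19 (SE 0.047, adjusted p = 0.00108) at TP1, in 6 of 6 combinations, and -0.16 (SE 0.047, adjusted p = 0.00872) at TP2. In C/D its values were 0.044 (SE 0.050, adjusted p = 0.626) and 0.11 (SE 0.051, adjusted p = 0.0877). Relb gave -0.17 (SE 0.050, adjusted p = 0.00644) in A/B at TP1 and -0.15 (SE 0.044, adjusted p = 0.00755) in C/D at TP2, the latter -0.048 (adjusted p = 0.482) without experiment 9.7. Rel gave -0.14 (SE 0.044, adjusted p = 0.0196) in A/B at TP2, and Rela, the main canonical subunit, gave -0.11 (SE 0.059, adjusted p = 0.153) in A/B at TP1 and 0.033 (SE 0.048, adjusted p = 0.622) in C/D at TP2.

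Of the 8 tested kinase peaks, 2 were lower in A/B at TP1 and 0 higher, a share near the 20.1% of all promoter peaks that were lower. Map3k14 ranged over 46.1, 70.5 and 77.8 CPM alone and 41.5, 59.6 and 71.4 CPM at TP1, with a log2 fold change of -0.22 (SE 0.050, adjusted p = 0.000323), in 6 of 6 combinations. Ikbke, an IKK-related kinase, gave -0.18 (SE 0.046, adjusted p = 0.00113) at TP1 in A/B and rose by 0.23 from TP1 to TP2 (adjusted p = 0.000298). In C/D at TP2, Ikbke gave 0.16 (SE 0.043, adjusted p = 0.0032). Ikbkg, which encodes NEMO, the regulatory subunit of IKK, gave 0.12 (SE 0.050, adjusted p = 0.113) in C/D at TP1 at its TSS peak, which is shared with Fam3a. Its second peak, over the start shared with G6pdx, gave -0.14 (SE 0.051, adjusted p = 0.0196) in C/D at TP2. The catalytic subunits Chuk and Ikbkb gave -0.075 (SE 0.053, adjusted p = 0.268) and 0.079 (SE 0.055, adjusted p = 0.261) in A/B at TP1, and 0.047 (SE 0.040, adjusted p = 0.371) and -0.025 (SE 0.053, adjusted p = 0.741) in C/D at TP2.

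A second Map3k14 peak, chr11:103216847-103221207, beyond the end of the gene model and within 3 kb of a start of Spata32, was higher in C/D at TP2. It ranged over 13.5, 18.2 and 25.8 CPM alone, 12.2, 17.2 and 24 CPM at TP1 and 12.5, 22.3 and 35.1 CPM at TP2, with a log2 fold change of 0.31 (SE 0.065, adjusted p = 0.000163) at TP2 over alone and 0.35 (SE 0.063, adjusted p = 6.75e-05) over TP1. In A/B it gave -0.12 (SE 0.11, adjusted p = 0.461) at TP2.

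The IκB family held the largest shift of the set. The Nfkbiz peak 1614 bp inside the gene from an upstream start, chr16:55835001-55839479, was weak. Nfkbiz encodes IκBζ, a nuclear member of the family that is induced in inflammation. It ranged in A/B over 5.84, 8.04 and 15.2 CPM alone, 6.78, 10.3 and 16.4 CPM at TP1 and 7.48, 11.7 and 17.2 CPM at TP2, and overlapped a broad peak in 91 of 125 libraries. The medians stepped up with NK cells and the ranges overlapped. The log2 fold change was 0.42 (SE 0.077, adjusted p = 1.76e-05) at TP1 and 0.57 (SE 0.078, adjusted p = 4.25e-08) at TP2, in 6 of 6 combinations at each. That is 1.48-fold higher at TP2, with a 95% interval of 0.42 to 0.72 that spans the threshold of 0.58. Within experiments 9.5, 9.6 and 9.7 the TP2 value was 0.36, 0.73 and 0.58. In C/D the peak gave 0.035 (SE 0.10, adjusted p = 0.872) and 0.13 (SE 0.11, adjusted p = 0.369). The TSS peak of Nfkbiz, which is nearest to another start, gave 0.068 (SE 0.056, adjusted p = 0.356) in A/B at TP1 and -0.21 (SE 0.049, adjusted p = 0.000729) in C/D at TP2.

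Bcl3, an atypical IκB protein that binds p50 and p52 dimers in the nucleus, had an open intronic peak at chr7:19815693-19818131 that was higher in all 4 comparisons with cells alone. Its log2 fold change was 0.23 (SE 0.053, adjusted p = 0.000332) and 0.18 (SE 0.053, adjusted p = 0.0104) in A/B and 0.24 (SE 0.051, adjusted p = 0.000476) and 0.23 (SE 0.052, adjusted p = 0.000346) in C/D, at TP1 and TP2. Experiment 9.7 gave 0.050 in A/B and -0.0018 in C/D at TP1. The peak over the RefSeq promoter of Bcl3 gave 0.16 (SE 0.053, adjusted p = 0.0438) in C/D at TP1. Nfkbie, which encodes IκBε, gave 0.13 (SE 0.038, adjusted p = 0.0226) and 0.16 (SE 0.039, adjusted p = 0.000635) in C/D and -0.090 (SE 0.042, adjusted p = 0.0835) in A/B at TP1. Nfkbia gave -0.066 (SE 0.037, adjusted p = 0.155) in A/B at TP1 and -0.014 (SE 0.038, adjusted p = 0.805) in C/D at TP2, and Nfkbib gave 0.071 (SE 0.059, adjusted p = 0.444) in A/B at TP2. Nfkbia, whose promoter holds the κB match shown above, did not pass in either of the comparisons given.

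The feedback genes moved little. Tnfaip3 ranged over 30.5, 34 and 40.2 CPM in A/B alone and 30.1, 35.4 and 40.4 CPM at TP1, with a log2 fold change of 0.014 (SE 0.039, adjusted p = 0.818). In C/D at TP2 it gave -0.11 (SE 0.042, adjusted p = 0.028), and -0.047 (adjusted p = 0.508) without experiment 9.7. Tnip1, an A20-binding protein, gave -0.15 (SE 0.051, adjusted p = 0.0202) in A/B at TP1, and Cyld gave 0.0024 (SE 0.043, adjusted p = 0.974) in A/B and 0.084 (SE 0.043, adjusted p = 0.22) in C/D at TP1.

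Bcl10 gave 0.053 (SE 0.057, adjusted p = 0.492) in A/B at TP1 and -0.18 (SE 0.046, adjusted p = 0.00125) in C/D at TP2, where it was lower in 7 of 8 combinations, and its C/D value without experiment 9.7 was -0.097 (adjusted p = 0.127). Malt1, on chromosome 18, gave -0.092 (SE 0.042, adjusted p = 0.116) in A/B at TP2 and -0.10 (SE 0.043, adjusted p = 0.0592) in C/D at TP2.

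Of the target genes, Gadd45b, a stress-response gene, gave -0.15 (SE 0.048, adjusted p = 0.0113) in A/B at TP1. Junb gave -0.14 (SE 0.040, adjusted p = 0.00528) there and 0.077 with the loess offset, so its direction depended on the scaling. Ier3, an immediate early gene whose peak also covers a start of Flot1, gave -0.10 (SE 0.041, adjusted p = 0.104) in C/D at TP1. The Tnfaip2 peak over its RefSeq promoter ranged in C/D over 15.9, 21.5 and 30.3 CPM alone, 17.9, 24.6 and 30.5 CPM at TP1 and 22.7, 27.5 and 41.3 CPM at TP2. Its log2 fold change at TP2 was 0.38 (SE 0.054, adjusted p = 1.48e-07), in 8 of 8 combinations, and it was 0.40 without experiment 9.7. In A/B at TP2 it was 0.091 (SE 0.088, adjusted p = 0.519).

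Between TP2 and TP1 in A/B, 6 of 43 member peaks passed the adjusted p as higher and 2 as lower, where 8.72% of all promoter peaks were higher and 9.9% lower. The 6 were Tnfrsf13c, Lta, Ikbke, Ltb, Traf1 and Nfkbie. This comparison shares its TP1 libraries with that of TP1 against cells alone, so a low value at TP1 enters both. With summed libraries Ikbke and Tnfrsf13c still passed. The 2 lower peaks were Tnfrsf1b (-0.17 (SE 0.058, adjusted p = 0.0319)) and Cd40 (-0.16 (SE 0.054, adjusted p = 0.0278)). In C/D, 6 of 44 were higher and 7 lower, against 16% and 18.4% of all, and 2 of these 13, the second Map3k14 peak and the Tnfaip2 promoter peak, still passed with summed libraries. The largest were the second Map3k14 peak (0.35), Tnfrsf13c (0.26) and the Tnfaip2 promoter peak (0.23) among the higher, and Ripk2 (-0.21), Bcl10 (-0.20) and Nfkbiz (-0.19) among the lower.

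Whether the effect of NK cells differed between the pairs of lines was tested as a contrast in 1 fit of all 123 samples. No member peak was called at TP1 (0 of 44, against 2.18% of all promoter peaks) or at TP2 (0 of 44, against 2.7%), and DESeq2 also called 0 at each time point. Of the 10911 peaks that overlapped a broad peak in every library, 5 were called higher and 6 lower at TP1, and 12 and 35 at TP2. At an unadjusted p under 0.05, edgeR gave 21 and 17 of 44, against 30.9% and 31.5% of all promoter peaks. At the adjusted p alone, 9 of 44 member peaks were lower in A/B than in C/D and 2 higher at TP1, where 9.69% of all were lower and 5.21% higher. At TP2 it was also 9 lower and 2 higher, against 11.2% and 5.72%. With the loess offset the split was 3 lower and 1 higher at TP1 and 7 lower and 3 higher at TP2. With the libraries of each group summed, 0 of the 11 differences at TP1 and 1 of the 11 at TP2 still passed the adjusted p.

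The difference at TP1 was -0.42 (SE 0.11, adjusted p = 0.00604) for Tnfrsf13c, with an interval of -0.63 to -0.20, and -0.41 (SE 0.099, adjusted p = 0.00365) for Ltb. With summed libraries these were -0.42 (adjusted p = 0.159) and -0.43 (adjusted p = 0.142). Traf1 gave -0.27 (SE 0.083, adjusted p = 0.0193), Traf2 -0.26 (SE 0.081, adjusted p = 0.0233) and Nfkb2 -0.24 (SE 0.071, adjusted p = 0.017). Ripk2 gave 0.31 (SE 0.084, adjusted p = 0.00779) and the inner Nfkbiz peak 0.38 (SE 0.14, adjusted p = 0.043), both higher in A/B. At TP2, Nfkb2 and Cd40 differed by -0.29 (SE 0.072, adjusted p = 0.00239) and -0.30 (SE 0.068, adjusted p = 0.000736), and without experiment 9.7 by -0.32 (adjusted p = 0.00967) and -0.28 (adjusted p = 0.0302). With summed libraries Cd40 gave -0.31 (adjusted p = 0.0308), the 1 that still passed, and Nfkb2 -0.30 (adjusted p = 0.0578). The other 9 of the 11 differences at TP2 did not pass without experiment 9.7, among them Tnfrsf13c, from -0.40 to -0.29 (adjusted p = 0.128), Ltb, from -0.36 to -0.24 (adjusted p = 0.185), and the second Map3k14 peak, from -0.46 to -0.097 (adjusted p = 0.721). For Birc3 the difference at TP1 was -0.16 (SE 0.073, adjusted p = 0.121) with an interval of -0.30 to -0.017, and for Birc2 it was 0.028 (SE 0.069, adjusted p = 0.809) with an interval of -0.11 to 0.16.

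Markers of cell types were tested in the same comparisons, and were not examined with the loess offset or summed libraries. In A/B at TP1, 7 of 9 tested B-lineage marker peaks passed the adjusted p as lower, against 20.1% of all promoter peaks, their median was -0.30, and 0 were called. In A/B at TP2, 3 of 9 were lower (median -0.12), against 9.76% of all. In C/D at TP1, 0 of 9 passed. The difference between the pairs was lower in A/B for 7 of 9 at TP1 (median -0.34) and for 6 of 9 at TP2 (median -0.28), and in C/D at TP2 3 of 9 were higher (median 0.14). Of 6 NK marker peaks tested in each pair, 3 were higher in A/B at TP1 (median 0.16) and 1 in C/D at TP2 (median 0.20), against 17.8% and 17.9% of all, and 0 were called. Those in A/B were Nkg7 (0.46), Prf1 (0.44) and Il2rb (0.29), and that in C/D was Il2rb (0.33). The defining markers Klrb1c (-0.026, adjusted p = 0.847) and Eomes (0.037, adjusted p = 0.678) did not pass in A/B at TP1, and neither did Tbx21 (-0.082). In C/D at TP2, Klrb1c (-0.046) and Eomes (-0.11) did not pass. The 6 T cell markers had 5 promoter peaks with a summed level of 30 to 77.9 CPM over all libraries, and 2 were tested. Of these, Trac was higher in A/B at TP1 (0.23, adjusted p = 0.0119), in A/B at TP2 (0.36, adjusted p = 0.000236) and in C/D at TP2 (0.24, adjusted p = 0.00389), and Cd3d was lower in A/B at TP1 (-0.18, adjusted p = 0.0083). The 6 myeloid markers summed to 14.5 to 29.6 CPM, and of 3 tested Lyz2 was higher in A/B at TP1 (0.28, adjusted p = 0.0121) and Cd14 in C/D at TP1 (0.20, adjusted p = 0.0369). Their part in the values of Tnfrsf13c, Ltb and the other member peaks was not tested.

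Levels without NK cells, in the cells alone collected at TP1, were compared between the pairs of lines. Among cells alone, 2 of 43 member peaks were called between A/B and C/D, against 11.5% of all promoter peaks. Of the 12359 peaks that overlapped a broad peak in every library of cells alone, 132 were called higher and 345 lower. Of the 37 member peaks among these, 0 were called. At the adjusted p alone 21 were higher in A/B and 4 lower, against 30.4% and 23.8% of all, and 25 of 43 had an unadjusted p under 0.05, against 58.7% of all. With summed libraries 16 of the 25 still passed and both calls were kept. With the loess offset the split was 10 higher and 9 lower and 1 peak was called. All lines of a pair share a parental line, so the p-values cover the spread between libraries only.

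Traf1 was higher in A/B. Its lowest, median and highest values alone were 41.8, 56.9 and 67.5 CPM in line A, 30.4, 62.2 and 78.5 CPM in B, 25.6, 35.5 and 45.3 CPM in C and 28.3, 36.3 and 52.1 CPM in D. Of the 18 A/B libraries, 11 lay above every C/D library and 17 above the C/D median. The log2 fold change was 0.62 (SE 0.058, adjusted p = 4.40e-13), that is 1.54-fold higher. With NK cells the count was 11 of 18 at TP1 and 10 of 18 at TP2.

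The Tnfaip2 promoter peak, chr12:111442037-111445663, was lower in A/B. Tnfaip2 was first described as a gene induced by TNF in endothelial cells. It ranged over 9.9, 14.2 and 17.2 CPM in A, 11.9, 13.1 and 19.3 CPM in B, 18.9, 21.5 and 24.7 CPM in C and 15.9, 21.8 and 30.3 CPM in D. Of the 18 A/B libraries alone, 12 lay below every C/D library and all 18 below the C/D median, and with NK cells at TP2 17 of 18 lay below every C/D library. The log2 fold change alone was -0.66 (SE 0.062, adjusted p = 8.92e-13), that is 1.58-fold lower.

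Below the threshold for a call, A/B alone were higher at Tnfrsf13c (0.33 (SE 0.060, adjusted p = 6.70e-06)), Ltb (0.27 (SE 0.066, adjusted p = 0.000427)), Lta (0.26 (SE 0.071, adjusted p = 0.00147)), Nfkb2 (0.24 (SE 0.048, adjusted p = 4.23e-05)) and Ripk1 (0.24 (SE 0.044, adjusted p = 9.88e-06)). They were lower at the second Map3k14 peak (-0.49 (SE 0.063, adjusted p = 4.31e-09)) and at the inner Tnfrsf1a peak (-0.40 (SE 0.063, adjusted p = 5.79e-07)). Of the B-lineage marker peaks, 8 of 9 were higher in A/B alone (median 0.26), against 30.4% of all promoter peaks. After co-culture at TP1 the medians of Tnfrsf13c were 30.3 CPM in A/B and 29.3 in C/D, where alone they had been 37.8 and 32.8.

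**Figure D5:**
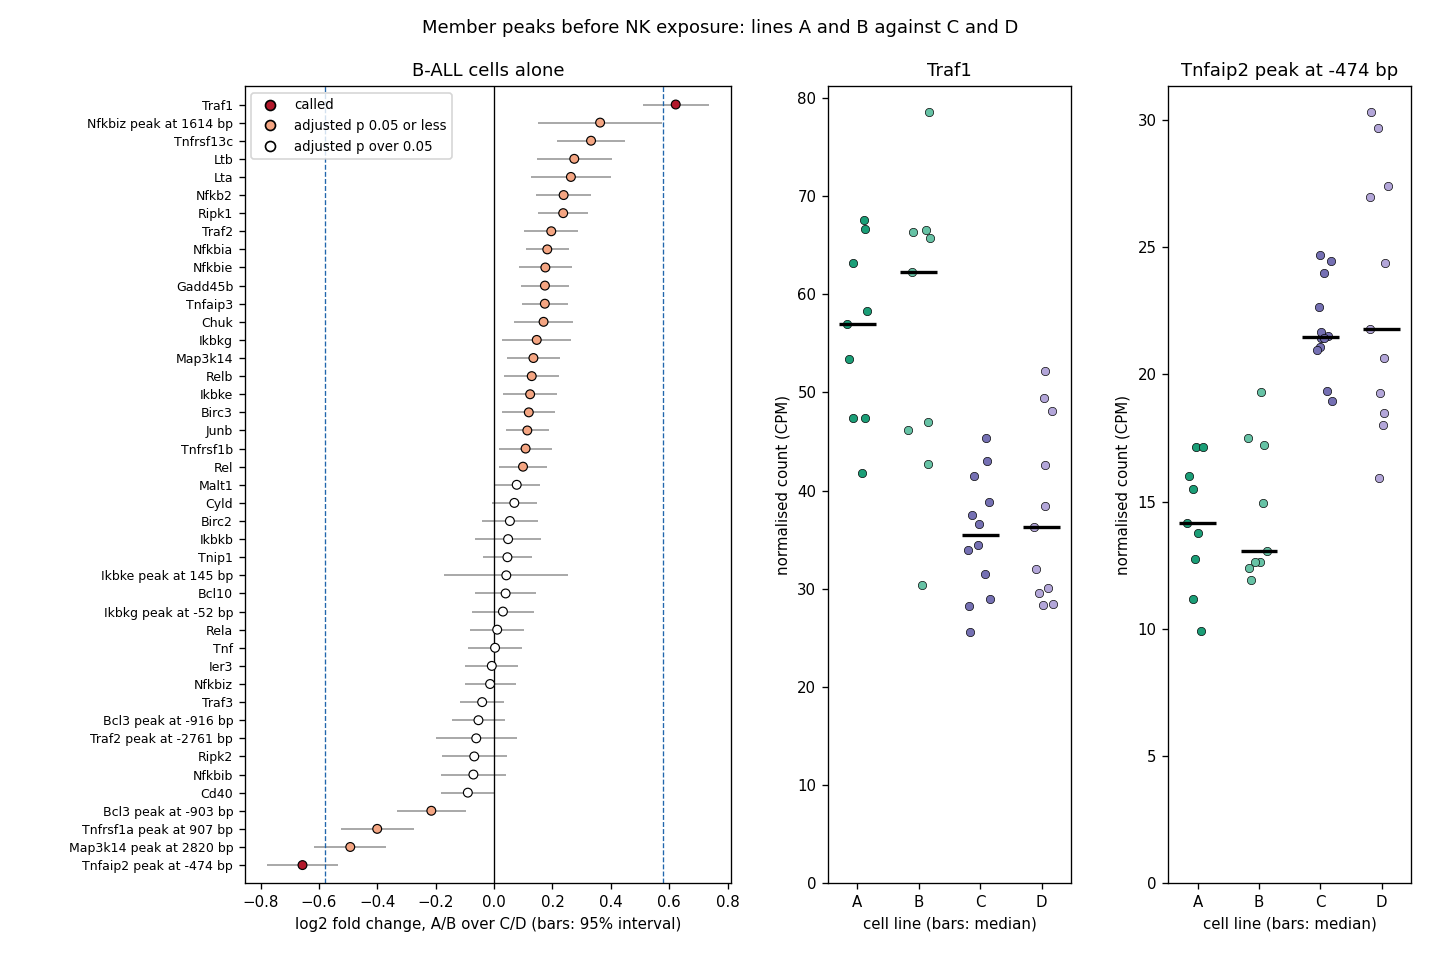
Left, log2 fold change of A/B over C/D in cells alone (x axis, bars 95% intervals) for each of the 43 tested member peaks (y axis), with called peaks in red and dashed lines at -0.58 and 0.58. Right, CPM (y axis, from 0) at Traf1 and at the Tnfaip2 promoter peak in each library of cells alone by line (x axis, bars at medians), where most A and B libraries lie above C and D at Traf1 and below them at Tnfaip2.

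Lower TSS peaks were found among genes with and without a κB match in a promoter window. Genes were split by their windows, and the match need not lie in the tested peak. At Tnip1, among the lower peaks of genes with a match, the matches lay in chr11:54962891-54963190. That window is outside the tested TSS peak, chr11:54955484-54956546. In A/B at TP1, where 20.1% of all promoter peaks were lower and 17.8% higher, of 11 tested TSS peaks of genes with a match 4 were lower and 0 higher (median -0.090, range -0.33 to 0.053), and of 17 without a match 10 were lower and 2 higher (median -0.13, range -0.42 to 0.18). In C/D at TP2, where 17.9% of all were higher and 19.3% lower, 2 of 11 with a match were higher and 2 lower, and 6 of 17 without a match were higher and 0 lower. Nfkb2 and Ltb, with a match, and Tnfrsf13c and Traf1, without one, were all lower in A/B at TP1.

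Other genes of the pathway were examined from a list of 116, of which 113 had a promoter peak. In A/B at TP1, 22 of 95 tested TSS peaks passed the adjusted p as higher and 29 as lower, against 17.8% and 20.1% of all promoter peaks. Of all promoter peaks 3.89% were called, 693 of them higher and 93 lower. From the list 5 were called, all higher. These were Tnip3, an A20-binding protein related to Tnip1 (1.03 (SE 0.14, adjusted p = 1.88e-08)), Il15, a cytokine for NK cells (0.91 (SE 0.095, adjusted p = 1.09e-11)), Ehd1, an endocytic protein (0.88 (SE 0.12, adjusted p = 4.50e-08)), and the chemokines Ccl4 (0.76 (SE 0.16, adjusted p = 9.44e-05)) and Ccl2 (0.76 (SE 0.18, adjusted p = 0.00047)). At TP2 in A/B, 6 were higher and 10 lower (9.79% and 9.76% of all), and Ehd1 (0.98 (SE 0.12, adjusted p = 5.32e-09)) and Il15 (0.61 (SE 0.098, adjusted p = 1.77e-06)) were called, where 3.63% of all were. In C/D, 6 of 98 were higher and 3 lower at TP1 (6.18% and 3.39% of all), with Il15 called (0.63 (SE 0.086, adjusted p = 3.89e-08)), against 1.01% of all. At TP2 in C/D, 17 were higher and 27 lower (17.9% and 19.3% of all), with Ehd1 called (1.09 (SE 0.12, adjusted p = 3.55e-11)), against 1.78% of all. In the test of the difference between the pairs, 2 of 98 were called at TP1, against 2.18% of all. They were Tnip3 (0.75 (SE 0.20, adjusted p = 0.00592)) and Ccl4 (0.69 (SE 0.21, adjusted p = 0.0199)). At TP2 Nr4a1, an immediate early nuclear receptor, was called (-0.79 (SE 0.18, adjusted p = 0.000704)), against 2.7% of all. These genes were not examined with summed libraries, where the contrast at TP1 called 14 of all 22881 peaks higher and 1 lower. In cells alone, calls over all promoter peaks leaned towards lower values in A/B, with 590 higher and 1778 lower by DESeq2. Of the TSS peaks of the list, at most 113 tested, 9 were called by edgeR, against 11.5% of all. All 9 were lower in A/B, from Cd83 (-1.06) and Il1b (-1.05) to Ccl4 (-0.58). Ptgs2, Ccl3, Ccl2, Ltbr and Mapk8 were also among them.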

How the data were processed

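The authors aligned ATAC-seq reads to GRCm38 with STAR (version not given in the sources used here), marked duplicates with Picard 2.27.4 and called broad peaks with MACS2 2.2.7.1. The deposited table holds raw counts of read pairs in consensus peaks over all libraries, made by the authors with featureCounts 2.0.1, where a pair counted for each peak covering at least 0.2 of it. For every library the authors called broad peaks singly and deposited them with −log10 q-values, the lowest being 1.00. Per the methods of the study, a human-build blacklist was applied to these mouse reads, and its effect on the peaks was not tested.

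The 37 genes, the roles and the other lists were chosen with earlier results of these data known. TSSs of every annotated transcript came from GENCODE M21, and each gene is represented by its peak nearest to a TSS. Testing required a broad peak in all replicates of 1 or more groups and passage of the count filter of edgeR, which left 20229 peaks in A/B, 22070 in C/D, 22881 over all lines and 20538 in cells alone. Counts were scaled by TMM and tested in edgeR 4.0.16 (R 4.3.3) by its quasi-likelihood F-test, with additive terms for the combinations of line and experiment and Benjamini-Hochberg adjustment over all tested promoter peaks. Near-identical libraries were averaged. CPM are counts scaled to the TMM effective library size. An SE is the size of the log2 fold change divided by the root of its F statistic. Log2 ratios of means in single combinations used 0.1 CPM as pseudocount. The fit was tried on simulated A/B counts with changes at TP2 above the fold threshold and no differences between lines or experiments. Smaller shifts were not simulated.

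Named members were every called peak and, for each role, the TSS peaks with the largest absolute log2 fold change in each comparison with cells alone and the highest and lowest level. Other peaks that passed the adjusted p were named after their values were seen. Alternatives were DESeq2 1.42.0, DESeq2 size factors, a loess offset, no filter, peaks called in every library, a replicate block, left-out replicates, single lines and experiments, summed libraries and a fit over all peaks. Promoter sequences were from RefSeq.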

Additional observations from a re-analysis of the deposited data

Results flagged for a closer look

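The results here are the member peaks at which the effect of NK cells differed between A/B and C/D by the test of that difference (contrast in 1 fit of all lines, edgeR quasi-likelihood, adjusted p of 0.05 or less over all promoter peaks). A negative value means a lower log2 fold change in A/B. At TP1 they were Tnfrsf13c (-0.42), Ltb (-0.41), Traf1 (-0.27), Traf2 (-0.26), Nfkb2 (-0.24), Nfkbie (-0.22), Ripk1 (-0.22), Junb (-0.21), Ikbke (-0.18), Ripk2 (0.31) and the inner Nfkbiz peak (0.38). At TP2 they were the second Map3k14 peak (-0.46), Tnfrsf13c (-0.40), Ltb (-0.36), the Tnfaip2 promoter peak (-0.31), Cd40 (-0.30), Nfkb2 (-0.29), Junb (-0.19), Ripk1 (-0.19), Nfkbie (-0.16), Ripk2 (0.35) and the inner Nfkbiz peak (0.42). Of these 22 differences, none reached the fold threshold of 0.58. With the libraries of each group summed, Cd40 at TP2 alone still passed the adjusted p, and 0 of the 11 at TP1 did. Experiments 9.5.1 and 9.6.1 held a C/D line only, and each pair stems from 1 parental line, so line and experiment cannot be told apart in full.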

How the results depend on the processing

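The 121 peak results that passed the adjusted p were recomputed under 23 alternatives where each could be fitted, which gave 2077 values. Of these values, 2037 kept their direction, 1387 also kept their side of the threshold, and 40 reversed. Of the 121, the DESeq2 Wald test kept 121, the loess offset 88, leaving out experiment 9.7 80, no filter 65, leaving out replicate 1, 2 or 3 60, 72 and 84, and summing the libraries of each group 46. The summed fit kept 0 of 11 differences between the pairs at TP1 and 1 of 11 at TP2.

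The count of called member peaks with NK cells, 0 in each comparison, became 1 in A/B at TP2 with the libraries of a group summed, with line A alone and with TSSs of the GENCODE basic set, an alternative chosen after seeing the data. In experiment 9.6 alone it was 1 in A/B at TP1, at TP2 and from TP1 to TP2, and 1 at TP2 and 2 from TP1 to TP2 in C/D. In experiment 9.7 alone it was 1 in A/B at TP2, and 3 at TP2 and 2 from TP1 to TP2 in C/D. In experiment 9.6.1 alone it was 2 in C/D at each time point. With no filter it was 1 in A/B from TP1 to TP2, and 1 at TP2 and 4 from TP1 to TP2 in C/D. Leaving out replicate 1, 2 or 3 gave 0 to 1 in A/B at TP2 and 0 in the other comparisons with NK cells. For A/B against C/D alone, where 2 were called, it gave 1 to 2. That count was 1 with the loess offset, 1 for member peaks within 1 kb and 0 for peaks called in every library. At the adjusted p alone, leaving out a replicate number gave 7 to 13 lower and 3 to 6 higher member peaks in A/B at TP1, and 0 to 10 lower at TP1 in the difference between the pairs, in fits that use fewer libraries.

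With the loess offset Junb reversed in A/B at TP1 (0.077), in both differences between the pairs (0.045 and 0.030) and between the pairs alone (-0.12). In A/B, experiment 9.6 alone reversed Cd40 (-0.014) and experiment 9.5 alone Tnfrsf1b (-0.019) at TP1, and line B alone reversed Cd40 (0.010) from TP1 to TP2. In C/D at TP1, experiment 9.5.1 alone reversed Nfkbie (-0.058) and the upstream Traf2 peak (-0.00081) and experiment 9.7 alone the intronic Bcl3 peak (-0.0018) and the Bcl3 promoter peak (-0.17). In C/D at TP2, experiment 9.5 alone reversed Tnfaip3 (0.017), Tnfrsf13c (-0.076), Ltb (-0.14), Tnf (-0.20) and Lta (-0.031), experiment 9.5.1 alone Ripk1 (-0.25), Lta (-0.048), the upstream Traf2 peak (-0.10), Ripk2 (0.25), Relb (0.15) and the second Ikbkg peak (0.14), experiment 9.6 alone Birc3 (-0.037), experiment 9.6.1 alone the second Map3k14 peak (-0.084) and Bcl10 (0.055) and experiment 9.7 alone the Bcl3 promoter peak (-0.023). From TP1 to TP2 in C/D, experiment 9.5 alone reversed Tnfrsf13c (-0.091) and Tnf (-0.12), experiment 9.5.1 alone the inner Ikbke peak (-0.12), experiment 9.6 alone Tnf (-0.14), experiment 9.6.1 alone the inner Ikbke peak (-0.29), Rel (0.14), the second Map3k14 peak (-0.19), the Tnfaip2 promoter peak (-0.012), Nfkbiz (0.057), Ripk2 (0.033) and Tnfrsf1b (0.13) and experiment 9.7 alone the inner Ikbke peak (-0.098), Rel (0.029) and Birc2 (0.035). The cause was not tested.

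The replicate numbers did not pair the samples. Over 124 pairs of same-numbered samples, 36 correlations of deviations were over 0.1 and 34 under -0.1, with a median of 0.027. With a replicate block the count of called member peaks was 0 in each comparison with NK cells and 2 between the pairs alone, and at the adjusted p alone the block kept 112 of the 121.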
